A study of Mus musculus with 10 samples.

Results

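A set of 10 genes of the Hippo pathway and of its effector YAP was described in bulk RNA-seq of mouse livers, out of 55291 genes in the deposited table. They were taken by symbol and are Yap1, Wwtr1, Tead1, Ccn1, Ccn2, Ankrd1, Amotl2, Ajuba, Axl and Lats2, and all 10 passed the filter on low counts. The 10 livers came from female mice aged 16 to 20 weeks that carry a Cas9 gene kept silent by a lox-flanked stop cassette. All of them received an adeno-associated virus (AAV8) with a guide RNA and a Cre gene driven by TBG, a promoter active in hepatocytes, so that editing was aimed at hepatocytes and not at the other liver cells. NTC livers carried a non-targeting guide and sgBap1 livers a guide against Bap1, which encodes a deubiquitinase of histone H2A. On day 10 the mice were injected with carbon tetrachloride (CCl4), a solvent that injures the hepatocytes around central veins, or with its olive oil vehicle (Veh), and livers were taken 48 hours later. Vehicle was given to 2 NTC and 2 sgBap1 mice and CCl4 to 3 mice of each genotype, with each liver taken as 1 mouse.

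The Hippo pathway is a kinase cascade that limits organ size. The kinases LATS1 and LATS2 phosphorylate the coactivators YAP (gene Yap1) and TAZ (gene Wwtr1) and keep them out of the nucleus. Unphosphorylated YAP and TAZ bind TEAD factors on DNA and raise genes such as Ccn1, Ccn2 and Ankrd1, and in the liver they are known for their part in growth and regeneration. This control acts largely on the proteins, and RNA levels of Yap1 or Lats2 do not measure it.

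TEAD factors bind the core CATTCC, which reads GGAATG on the other strand, and the sequences that hold it before the annotated starts of these genes are shown because they are what the proteins of this family read. RefSeq promoters (GRCm38.p6) were at hand for 8 of the 10 genes, all but Tead1 and Ccn2. In the 250 bases before the start, 7 of these 8 held the core, all but Lats2, against 14.4% of 27025 genes with a promoter in the table. The motif AP-1 (TGANTCA), searched in the same windows, was in 0 of the 8 and in 7.82% of all genes. The genes were chosen as targets and regulators of YAP, so the share is a description, and a match is not a site shown to be bound. The windows of 30 bases around each core follow, 5′ to 3′ on the strand of the gene, with the core in capitals.
Ccn1, first core base 103 before the start (chr3:145650071-145650100, minus strand): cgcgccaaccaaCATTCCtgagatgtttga
Ankrd1, 210 before the start (chr19:36120037-36120066, minus strand): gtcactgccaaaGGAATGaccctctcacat
Ankrd1, 123 before the start (chr19:36119950-36119979, minus strand): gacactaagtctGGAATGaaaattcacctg
Ajuba, 186 before the start (chr14:54577830-54577859, minus strand): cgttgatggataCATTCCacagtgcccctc
Ajuba, 164 before the start (chr14:54577808-54577837, minus strand): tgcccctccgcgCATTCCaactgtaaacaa
Axl, 233 before the start (chr7:25788949-25788978, minus strand): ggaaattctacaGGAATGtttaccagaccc
Amotl2, 65 before the start (chr9:102717727-102717756, plus strand): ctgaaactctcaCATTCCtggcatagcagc
Yap1, 141 before the start (chr9:8004720-8004749, minus strand): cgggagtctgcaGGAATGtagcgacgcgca
Wwtr1, 136 before the start (chr3:57576029-57576058, minus strand): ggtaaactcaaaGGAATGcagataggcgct
Ankrd1 and Ajuba each held 2 cores, and Wwtr1 has a second annotated start from which the same core lies 170 bases away. The Ankrd1 windows fall inside exons of GENCODE vM21, which places the start of that gene farther upstream, and the promoters of Amotl2 and of the second Wwtr1 start overlap such exons in part.

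**Figure D1:**
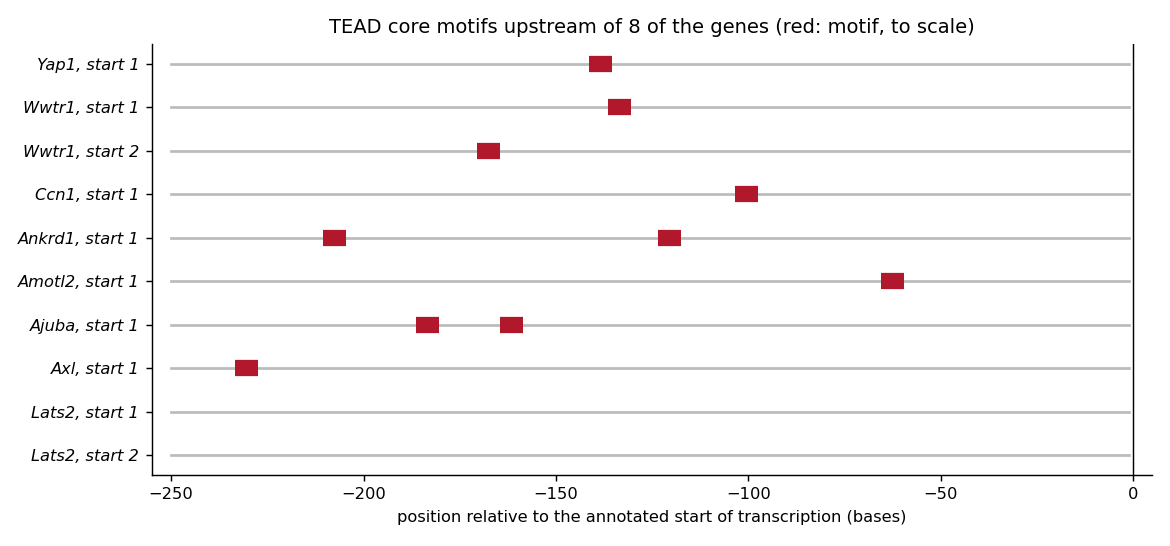
Position of the TEAD core in the 250 bases before each annotated start of transcription (x axis, bases), with 1 line per start of the 8 genes in the RefSeq table. Ankrd1 and Ajuba hold 2 cores each, and both starts of Lats2 hold none.

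Total estimated counts ran from 33.0 to 52.2 (in units of 1e+06) per liver, and values are given as CPM, the share of a library's counts times 1e+06, with libraries normalized by TMM. On this scale 3 counts equal 0.0511 to 0.112 CPM. All 8 hepatocyte markers were detected in every liver. Bap1 (ENSMUSG00000021901.10, chromosome 14, 31251450 to 31259944) measured 34.8 and 34.8 CPM in NTC-Veh, 17.5 and 19.5 in the sgBap1-Veh livers, 30.1, 31.5 and 29.5 in NTC-CCl4 and 17.0, 21.8 and 19.1 in sgBap1-CCl4 livers. It fell by 0.91 on the log2 scale with vehicle (SE 0.12, adjusted p = 0.0172) and by 0.65 with CCl4 (SE 0.09, adjusted p = 0.0307), and every sgBap1 liver lay below every NTC liver. The call with vehicle was lost without the 2nd NTC-Veh liver or either sgBap1-Veh liver (adjusted p up to 0.115). The call with CCl4 was lost without the 1st NTC-Veh liver, any NTC-CCl4 liver or the 1st or 3rd sgBap1-CCl4 liver (adjusted p up to 0.147). The 2nd sgBap1-CCl4 liver stood apart, with 383 CPM summed over 5 adipocyte markers against 22.0 to 30.5 in the other 5 CCl4 livers, and 1365 CPM over 8 markers of stellate cells and myofibroblasts against 425 to 628. For Ccn2, Axl, Amotl2, Ptpn14 and Vgll3, some of the values that rest on it are given with and without it. Others, such as the rises of Axl and Ptpn14 in sgBap1 livers, are given only with it.

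Most of the 10 genes were higher with CCl4. In NTC livers 9 of 10 rose, and in sgBap1 livers 8 of 10 (edgeR quasi-likelihood test, adjusted p under 0.05 over 17015 tested genes). CCl4 moved much of the transcriptome, so these counts read against 27.5% of all tested genes called higher and 26.3% lower in NTC livers (53.8% in either direction) and 29% higher and 27.7% lower in sgBap1 livers (56.7% in either direction). The median log2 fold change of the 10 genes was 1.06 in NTC and 1.07 in sgBap1 livers, against 0.03 and 0.04 over all tested genes. All 3 NTC-CCl4 livers lay outside the range of the 2 NTC-Veh livers for 10 of the 10 genes, 9 above and 1 below, where 71.7% of all tested genes did so. In sgBap1 livers it was 9 genes, all above, against 72.2%.

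**Figure D2:**
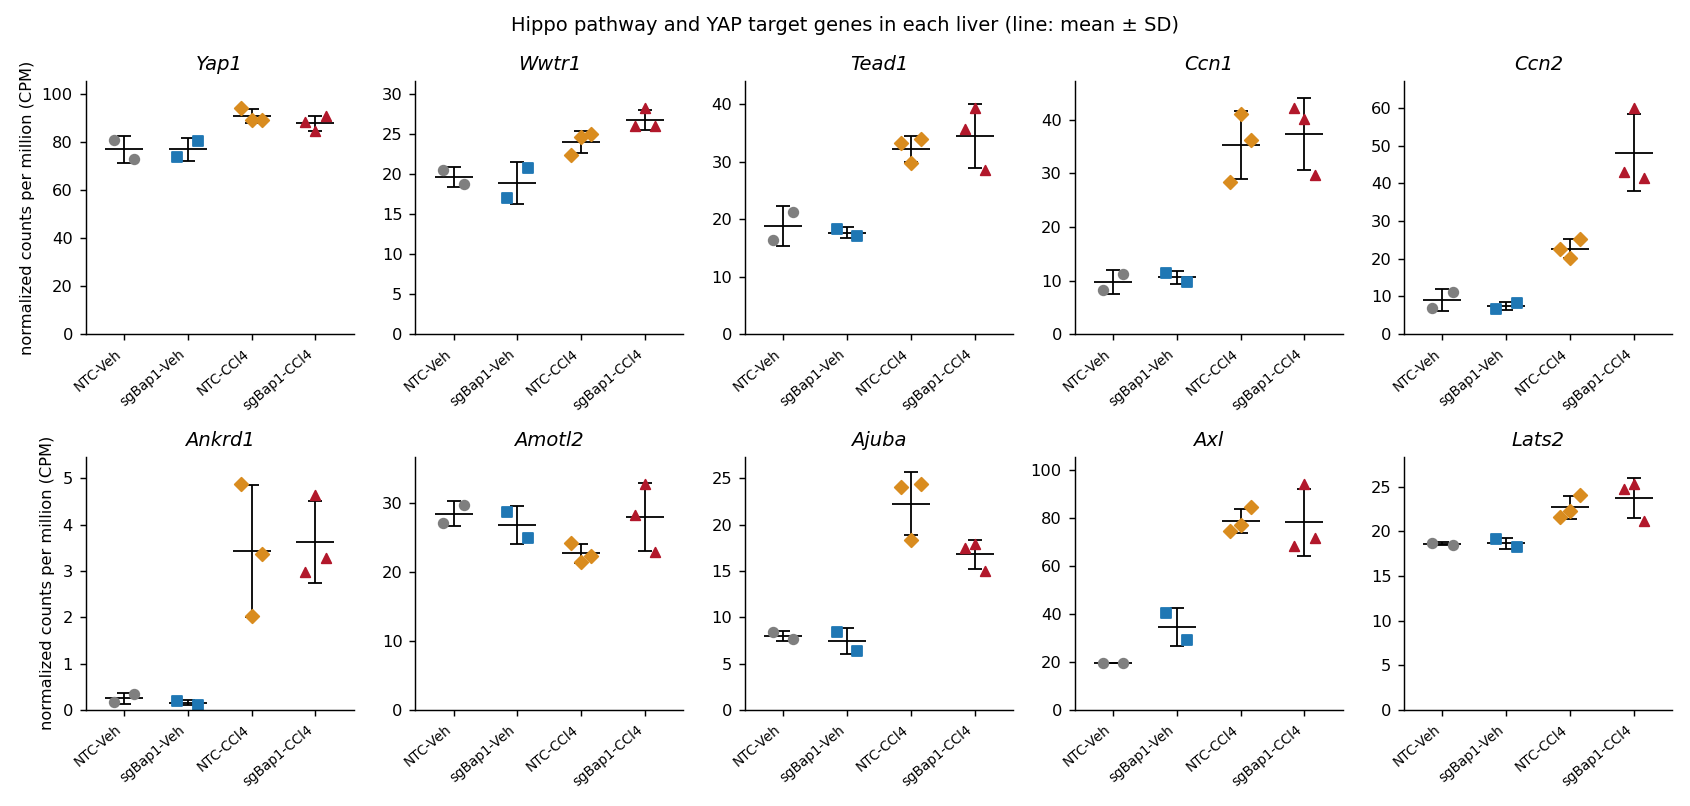
Expression of the 10 genes in each liver (y axis, CPM from 0; x axis, the 4 groups; points, single livers; lines and bars, mean ± SD with n = 2 for vehicle and n = 3 for CCl4). Ccn1, Ccn2, Ankrd1, Ajuba and Axl separate CCl4 from vehicle livers and have the largest log2 fold changes with CCl4 among the 10. Ccn2 is also apart between the CCl4 groups, and Amotl2 ranges from 21.4 to 32.7 CPM over all livers.

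Ccn1, Ccn2 and Ankrd1 are the targets most used as readouts of YAP activity. Ccn1 (Cyr61, ENSMUSG00000028195.4, chromosome 3, 145646976 to 145649981), a secreted protein that binds integrins, measured 8.19 and 11.3 CPM in NTC-Veh, 11.5 and 9.77 in the sgBap1-Veh livers, 28.5, 41.1 and 36.3 in NTC-CCl4 and 42.2, 40.2 and 29.8 in sgBap1-CCl4 livers. The 4 vehicle livers were low, the 6 CCl4 livers high, and the genotypes overlapped within each treatment. Its log2 fold change with CCl4 was 1.85 (SE 0.22, adjusted p = 7.34e-05) in NTC and 1.81 (SE 0.22, adjusted p = 7.99e-05) in sgBap1 livers. The difference between these changes, the interaction, was -0.04 (SE 0.29, adjusted p = 0.981).

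Ccn2 (Ctgf, ENSMUSG00000019997.11, chromosome 10, 24595442 to 24598683), a related secreted protein known for its part in fibrosis, measured 6.89 and 11.1 CPM in NTC-Veh and 6.75 and 8.27 in the sgBap1-Veh livers. With CCl4 it reached 22.5, 20.3 and 25.3 CPM in NTC and 43.1, 59.9 and 41.4 in sgBap1 livers. The lowest sgBap1-CCl4 liver thus lay above the highest NTC-CCl4 liver, while the vehicle groups overlapped. Ccn2 rose with CCl4 by 1.33 on the log2 scale in NTC (SE 0.23, adjusted p = 0.000918) and 2.69 in sgBap1 livers (SE 0.24, adjusted p = 1.67e-05). Without the 2nd sgBap1-CCl4 liver its rise in sgBap1 livers was 2.50. The gene Gm15270 overlaps Ccn2 on the other strand and had at most 11 counts in a liver.

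Between genotypes with CCl4, Ccn2 had a log2 fold change of 1.09 (SE 0.19), which missed the threshold with an adjusted p of 0.0569 by edgeR and passed it with 2.22e-05 by DESeq2's Wald test. The interaction was 1.35 (SE 0.32), with adjusted p = 0.144 by edgeR and 0.00511 by DESeq2. Without the 2nd sgBap1-CCl4 liver the genotype difference was 0.90 (adjusted p = 0.115) and the interaction 1.16 (adjusted p = 0.133). Without the 1st or the 2nd NTC-Veh liver, which enter this comparison through the shared spread, the genotype difference of 1.08 passed with adjusted p = 0.0484 and 0.0488. Over all 10 omissions the adjusted p of the genotype difference went up to 0.247. The summed cholangiocyte markers moved in the same direction, from 192 to 249 CPM in NTC-CCl4 to 273 to 370 in the sgBap1-CCl4 livers. Of these 6 markers 0 were called between the genotypes and 1 had an unadjusted p under 0.05. Spp1, which other injured or inflammatory cells also make, carried most of the sum with 180 to 234 against 260 to 352 CPM. Krt19, Krt7, Epcam, Sox9 and Cftr each overlapped between the CCl4 groups. The stellate markers measured 425 to 1365 CPM in sgBap1-CCl4 against 481 to 628 in NTC-CCl4 livers and overlapped. The part of these cells in the Ccn2 difference was not tested.

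Ankrd1 (ENSMUSG00000024803.9, chromosome 19, 36111961 to 36120099), a repeat protein of muscle nuclei and a sensitive YAP target, was the scarcest of the 10 genes. It had 6 and 12 counts in NTC-Veh and 7 and 3 in the sgBap1-Veh livers, which is 0.163, 0.333, 0.188 and 0.112 CPM. With CCl4 it measured 4.88, 2.03 and 3.36 CPM in NTC and 2.98, 4.64 and 3.27 in sgBap1 livers. It had the largest log2 fold changes of the 10 genes, 3.77 (SE 0.49, adjusted p = 0.000108) and 4.53 (SE 0.53, adjusted p = 5.51e-05), with wide errors because the vehicle level rests on few counts. Striated muscle markers summed to 0.338 to 0.914 CPM over the 10 livers, and 4 of the 5 (Ckm, Acta1, Tnnt3 and Myh2) had at most 3 counts in each vehicle and NTC-CCl4 liver.

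Axl (ENSMUSG00000002602.16, chromosome 7, 25757273 to 25788705) encodes a receptor tyrosine kinase that binds Gas6 and is also expressed by macrophages and stellate cells. It measured 19.5 and 19.4 CPM in NTC-Veh, 40.3 and 29.1 in the sgBap1-Veh livers, 74.7, 77.3 and 84.5 in NTC-CCl4 and 68.5, 94.3 and 71.9 in sgBap1-CCl4 livers. Both sgBap1-Veh livers thus lay between the NTC-Veh and the CCl4 livers, and the CCl4 groups overlapped. With CCl4, Axl rose by 2.02 on the log2 scale in NTC (SE 0.17, adjusted p = 9.04e-06) and by 1.17 in sgBap1 livers (SE 0.16, adjusted p = 0.000193).

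With vehicle, the log2 fold change of Axl in sgBap1 against NTC livers was 0.84 (SE 0.18), which did not pass by edgeR (adjusted p = 0.0775) and passed by DESeq2 (adjusted p = 0.00169). The interaction was -0.85 (SE 0.23), with adjusted p = 0.185 by edgeR and 0.0318 by DESeq2. Without the 2nd sgBap1-CCl4 liver the genotype difference stayed at 0.84 and passed by edgeR (adjusted p = 0.0317), and without the 1st sgBap1-Veh liver it was 0.58 (adjusted p = 0.311). With vehicle, markers of macrophages and Kupffer cells were, like Axl, higher in the sgBap1 livers. Their sum over 8 genes was 132 to 184 CPM in NTC-Veh and 257 to 365 in the sgBap1-Veh livers, and 324 to 422 in NTC-CCl4 and 322 to 394 in the sgBap1-CCl4 livers. All 8 were higher in both sgBap1-Veh livers than in both NTC-Veh livers, 7 of them at an unadjusted p under 0.05 and 1 (Csf1r) at an adjusted p under 0.05, where 40.9% of all tested genes did not overlap and 12.6% had an unadjusted p under 0.05. With CCl4, where Axl rose in both genotypes, 5 of the 8 were called higher in NTC livers. In sgBap1 livers 4 were called higher and 2 lower. Of all tested genes 27.5% were called higher and 26.3% lower in NTC livers, and 29% and 27.7% in sgBap1 livers. Of the 8 macrophage and Kupffer cell markers 0 were at or under 3 counts throughout a group. Other marker sums also differed between NTC-Veh and sgBap1-Veh livers. Proliferation markers went from 5.80 to 5.99 CPM to 8.87 to 11.8, and hepatocyte markers fell from 127469 to 157076 CPM to 112902 to 118420. Endothelial sums (149 to 160 against 153 to 213 CPM) and stellate sums (102 to 133 against 120 to 155 CPM) overlapped. In these bulk samples, more cells of a type cannot be told apart from more RNA per cell. The part of macrophages or of these other cells in the Axl values was not tested.

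**Figure D3:**
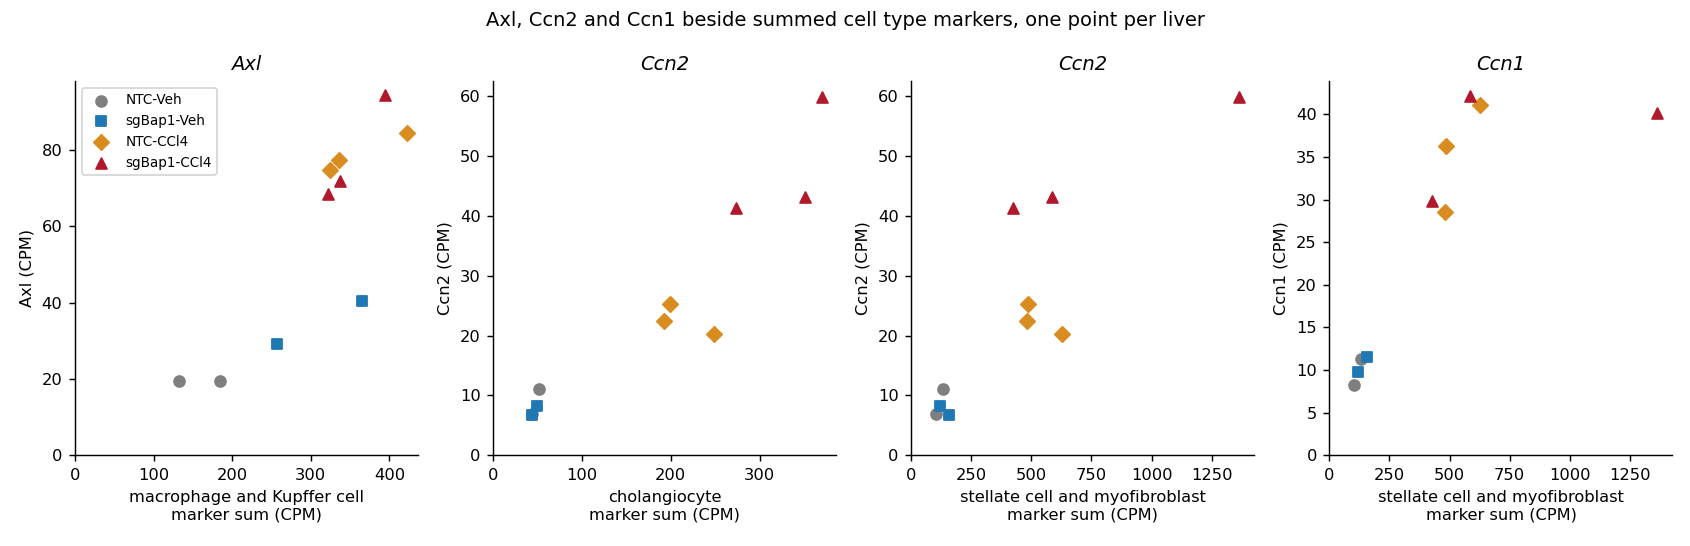
Axl, Ccn2 and Ccn1 (y axes, CPM) against summed markers (x axes, CPM) of macrophages for Axl, of cholangiocytes and of stellate cells for Ccn2 and of stellate cells for Ccn1, with 1 point per liver. The sgBap1-Veh livers (squares) lie above the NTC-Veh livers (circles) in both Axl and the macrophage sum, and 1 sgBap1-CCl4 liver has a stellate sum of 1365 CPM.

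Ajuba (ENSMUSG00000022178.11, chromosome 14, 54567472 to 54577558), a LIM protein that restrains LATS kinases, measured 8.39 and 7.62 CPM in NTC-Veh, 8.40 and 6.40 in the sgBap1-Veh livers, 24.1, 18.3 and 24.4 in NTC-CCl4 and 17.5, 17.9 and 15.0 in sgBap1-CCl4 livers. It rose with CCl4 in NTC (log2 fold change 1.48, SE 0.16, adjusted p = 4.02e-05) and in sgBap1 livers (1.18, SE 0.17, adjusted p = 0.000169). All 3 sgBap1-CCl4 livers lay below the 3 NTC-CCl4 livers, but the difference of -0.40 (SE 0.14) did not pass the test (adjusted p = 0.243). Up to 1.70% of the stretches of 50 bases in its transcripts also occur in other genes.

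Amotl2 (ENSMUSG00000032531.15, chromosome 9, 102716672 to 102733418), an angiomotin that holds YAP outside the nucleus and is itself a YAP target, was the exception among the 10. It measured 27.1 and 29.7 CPM in NTC-Veh, 28.7 and 24.8 in the sgBap1-Veh livers, 24.2, 21.4 and 22.3 in NTC-CCl4 and 28.2, 32.7 and 22.8 in sgBap1-CCl4 livers. The NTC-CCl4 livers were all below the NTC-Veh livers, and the log2 difference was -0.33 (SE 0.14, adjusted p = 0.0700). It turned to 0.15 when libraries were scaled by library size alone. The lower level passed the test without the 2nd or the 3rd sgBap1-CCl4 liver (adjusted p = 0.0343 and 0.0257) and in a fit of only these 2 groups (adjusted p = 0.0193). In sgBap1 livers the change was 0.06 (SE 0.14, adjusted p = 0.737), and -0.07 without the 2nd sgBap1-CCl4 liver.

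Lats2 (ENSMUSG00000021959.16, chromosome 14, 57689662 to 57758388), the kinase that YAP raises in turn, measured 18.7 and 18.5 CPM in NTC-Veh, 19.1 and 18.2 in the sgBap1-Veh livers, 21.6, 22.3 and 24.1 in NTC-CCl4 and 24.7, 25.3 and 21.1 in sgBap1-CCl4 livers. It rose slightly with CCl4, by 0.29 in NTC (SE 0.10, adjusted p = 0.0307) and 0.35 in sgBap1 livers (SE 0.10, adjusted p = 0.0119) on the log2 scale. Its values are uncertain, since 41.2% of the stretches of 50 bases of its transcripts also belong to Gm49361 on the same strand, which had 0 counts in all 10 livers.

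Yap1 and Wwtr1 encode the effectors themselves. Yap1 (ENSMUSG00000053110.13, chromosome 9, 7931999 to 8004596) measured 81.1 and 73.1 CPM in NTC-Veh, 73.8 and 80.4 in the sgBap1-Veh livers, 94.3, 89.3 and 89.5 in NTC-CCl4 and 88.4, 84.8 and 90.9 in sgBap1-CCl4 livers. All CCl4 livers lay above all vehicle livers, but by little, at 0.24 on the log2 scale (SE 0.08, adjusted p = 0.0332) in NTC and 0.19 (SE 0.08, adjusted p = 0.0739) in sgBap1 livers. The gene Gm20416 overlaps Yap1 on the other strand and had at most 1 count in a liver.

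Wwtr1 (ENSMUSG00000027803.14, chromosome 3, 57455649 to 57575910) measured 20.5 and 18.7 CPM in NTC-Veh, 17.0 and 20.7 in the sgBap1-Veh livers, 22.4, 24.6 and 25.0 in NTC-CCl4 and 26.0, 28.2 and 26.0 in sgBap1-CCl4 livers. It rose by 0.29 in NTC (SE 0.10, adjusted p = 0.0372) and 0.51 in sgBap1 livers (SE 0.10, adjusted p = 0.00202) on the log2 scale. The 3 sgBap1-CCl4 livers were above the 3 NTC-CCl4 livers, with a difference of 0.16 (SE 0.09, adjusted p = 0.493).

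Tead1 (ENSMUSG00000055320.17, chromosome 7, 112679318 to 112906807), the DNA-binding partner, changed more than either coactivator. It measured 16.3 and 21.3 CPM in NTC-Veh, 18.3 and 17.0 in the sgBap1-Veh livers, 33.2, 29.7 and 33.9 in NTC-CCl4 and 35.6, 39.3 and 28.5 in sgBap1-CCl4 livers. Its log2 fold change was 0.78 (SE 0.15, adjusted p = 0.00142) in NTC and 0.96 (SE 0.15, adjusted p = 0.000365) in sgBap1 livers, and the genotypes overlapped within each treatment.

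The calls of the 3 small changes in NTC livers rested on single mice. Yap1 lost its call without the 2nd NTC-Veh liver (adjusted p = 0.230), the 1st or 3rd NTC-CCl4 liver (0.0950 and 0.0552) or the 1st sgBap1-CCl4 liver (0.0501). Wwtr1 lost it without either NTC-Veh liver (0.0593 and 0.205), the 2nd or 3rd NTC-CCl4 liver (0.0832 and 0.0941) or the 1st sgBap1-CCl4 liver (0.0520), and by DESeq2 (0.0520). Lats2 lost it without either NTC-Veh liver (0.103 and 0.117) or the 3rd NTC-CCl4 liver (0.0893), and in sgBap1 livers without the 2nd sgBap1-Veh liver (0.0736). Where a vehicle liver is left out, the spread of the lone liver in that group is taken from the other groups.

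**Figure D4:**
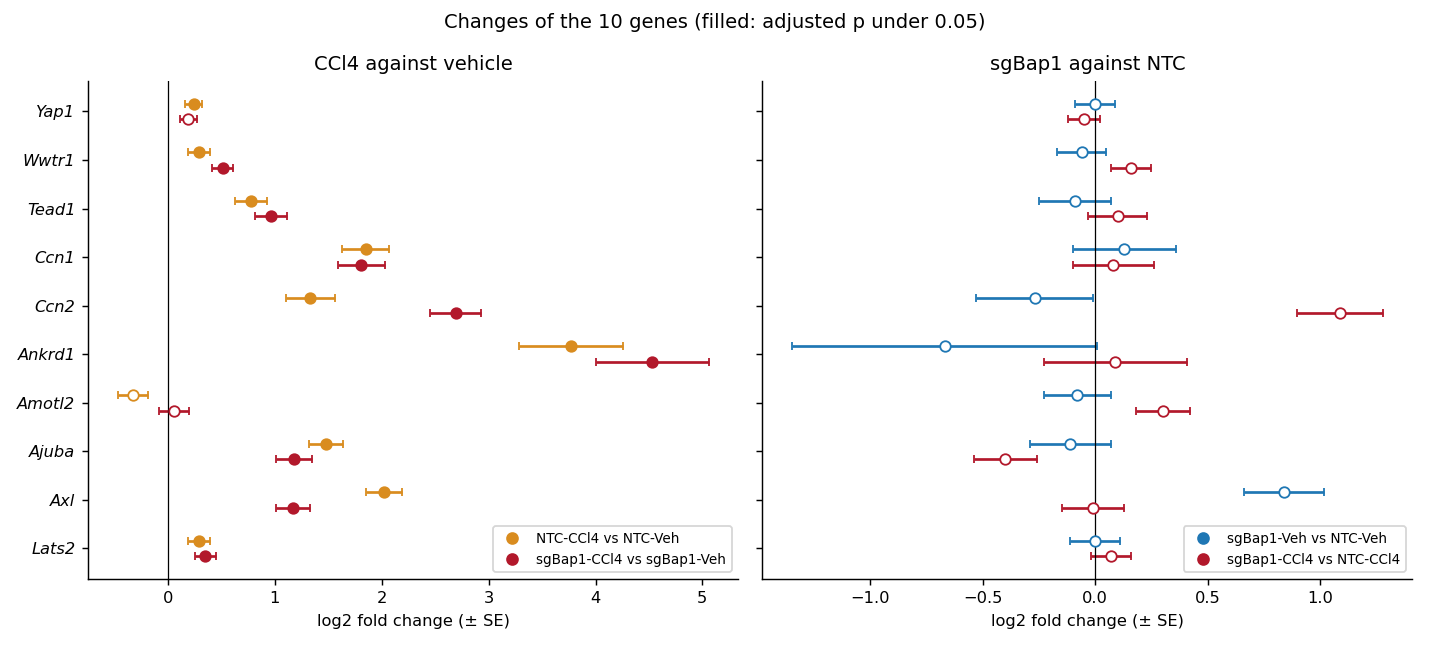
Log2 fold changes ± SE (x axes) of the 10 genes (y axis) for CCl4 against vehicle (left) and sgBap1 against NTC (right), with filled points at an adjusted p under 0.05. The right panel holds no filled point, and Ccn2 with CCl4 (1.09) and Axl with vehicle (0.84) lie farthest to the right in it.

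Between genotypes, 0 of the 10 genes were called by edgeR in either treatment, where 0.523% of all tested genes were called with vehicle (0.364% higher, 0.159% lower) and 0.253% with CCl4 (0.147% higher, 0.106% lower). With vehicle, 1 gene (Axl) had an unadjusted p under 0.05 (12.6% of all tested genes) and DESeq2 called 1 (Axl). With CCl4, 3 genes (Ccn2, Ajuba and Amotl2) had an unadjusted p under 0.05 (13.4% of all tested genes) and DESeq2 called 1 (Ccn2). Of these, Amotl2 differed by 0.30 (edgeR adjusted p = 0.328), and by 0.17 without the 2nd sgBap1-CCl4 liver (adjusted p = 0.68). The median log2 fold change of the 10 genes was -0.07 with vehicle and 0.09 with CCl4, against 0.02 and 0.00 over all tested genes. One gene, Axl, did not overlap between the vehicle groups, where 40.9% of tested genes did not, and 3 (Wwtr1, Ccn2 and Ajuba) did not overlap between the CCl4 groups, where 20.3% did not. For the interaction, edgeR called 0 of the 10 genes and 0% of all tested genes, 2 of the 10 (Ccn2 and Axl) had an unadjusted p under 0.05 (10.6% of all tested genes), and DESeq2 called these 2.

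Per kilobase of annotated exon, the level of Yap1 ranked first with vehicle, at 8.33 ± 0.616 CPM per kb in NTC-Veh and 8.33 ± 0.507 in the sgBap1-Veh livers (SD, n = 2 each). In the sgBap1-Veh group Axl followed with 6.89 ± 1.58 and overlapped it. In NTC-Veh livers Ccn1 (4.84 ± 1.10), Amotl2 (4.51 ± 0.291) and Wwtr1 (4.11 ± 0.266) followed, with Ccn1 overlapping the other two. With CCl4 the order changed. Ccn1 came first in NTC-CCl4 livers with 17.5 ± 3.16 CPM per kb, together with Axl at 15.7 ± 1.00, and Yap1 followed with 9.83 ± 0.305 (SD, n = 3). In sgBap1-CCl4 livers Ccn1 (18.5 ± 3.29), Ccn2 (16.8 ± 3.57) and Axl (15.5 ± 2.78) came first and overlapped (SD, n = 3). Tead1 and Ankrd1 ranked last in all 4 groups, with 2.54 ± 0.402 and 1.26 ± 0.307 CPM per kb at their highest. The ranks depend on the length used, the union of all annotated exons of a gene (13.57 kb for Tead1, 2.02 kb for Ccn1). The lengths of the transcripts present in these livers were not measured. In CPM without the length, the NTC-CCl4 mean of Tead1 (32.2) lay above those of Ccn2 (22.7) and Lats2 (22.7).

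The wider pathway was read from 3 lists of genes, which also hold some of the 10. Of 25 kinases and regulators, 14 were higher and 4 lower with CCl4 in NTC livers and 13 higher and 4 lower in sgBap1 livers, with a median log2 fold change of 0.35 in both. Of all tested genes 27.5% were higher and 26.3% lower in NTC livers and 29% higher and 27.7% lower in sgBap1 livers, with medians of 0.03 and 0.04, and the counts of all 3 lists read against these shares. Map4k4, a kinase that acts on LATS beside the core cascade, went from 9.62 to 10.5 CPM in NTC-Veh to 56.3 to 65.8 in NTC-CCl4 livers and had the same log2 fold change of 2.60 in both genotypes. Ptpn14, a phosphatase that binds YAP and is also in the target list, rose by 1.95 in NTC and 3.26 in sgBap1 livers. It measured 5.84, 13.1 and 11.2 CPM in NTC-CCl4 and 22.7, 31.8 and 14.4 in sgBap1-CCl4 livers, which do not overlap, but the difference of 1.19 did not pass (adjusted p = 0.194) and was 0.89 without the 2nd sgBap1-CCl4 liver. Its call in NTC livers was lost without the 1st NTC-Veh liver (adjusted p = 0.0518). Rassf1, a scaffold of the MST kinases, rose by 1.25 and 1.47.

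The 4 regulators that fell in NTC livers were Taok3 (log2 fold change -1.08) and Taok2 (-0.41), kinases upstream of MST, Nf2 (-0.30), the scaffold merlin, and Limd1 (-0.22), a relative of Ajuba. In sgBap1 livers they were Taok3 (-0.63), Nf2 (-0.33), Limd1 (-0.31) and Dchs1 (-0.51), a cadherin. Except for Taok3 these, and Lats1 and Stk4, were named after their values were seen. Several of these calls were lost with 1 mouse left out. Limd1 lost it in NTC livers without either vehicle liver of either genotype, the 1st or 2nd NTC-CCl4 or the 1st sgBap1-CCl4 liver (adjusted p up to 0.200), and in sgBap1 livers without the 1st sgBap1-Veh liver (0.0661). Nf2 lost it in NTC livers without either NTC-Veh liver or the 1st or 2nd NTC-CCl4 liver (up to 0.125), and in sgBap1 livers without the 1st sgBap1-Veh liver (0.130). Dchs1 lost it without the 2nd sgBap1-Veh or the 1st or 3rd sgBap1-CCl4 liver (up to 0.205). The fall of Dchs1 started from 8.26 and 10.3 CPM in the sgBap1-Veh livers, above 5.83 and 5.40 in NTC-Veh. With CCl4 it measured 5.54 to 7.70 CPM in NTC and 5.89 to 7.28 in sgBap1 livers. Taok3 started lower in the sgBap1-Veh livers, at 48.0 and 57.6 CPM against 68.6 and 76.8 in NTC-Veh. With CCl4 it reached 31.0 to 36.3 CPM in NTC and 29.8 to 36.7 in sgBap1 livers. Lats1, the other LATS kinase, had log2 fold changes of -0.02 and -0.01 that did not pass, while Stk4 (MST1) rose by 0.44 and 0.37. Between genotypes 0 of the 25 were called in either treatment by edgeR, with 3 and 5 at an unadjusted p under 0.05, against 12.6% and 13.4% of all tested genes, and 1 and 1 called by DESeq2.

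Among the 8 effectors, TEADs and cofactors, 5 were higher and 2 lower with CCl4 in both genotypes, where 53.8% of all tested genes were called in NTC and 56.7% in sgBap1 livers, and the 2 lower of 8 are near the share of all genes called lower (26.3% and 27.7%). The TEAD genes went in different directions. Tead4 rose by 1.66 and 1.60 and Tead2 by 1.08 and 1.40 on the log2 scale in NTC and sgBap1 livers, from 0.218 and 0.388 CPM and from 0.898 and 1.19 CPM in NTC-Veh livers, while Tead3 fell from 14.0 to 15.5 CPM in NTC-Veh to 8.08 to 8.66 in NTC-CCl4 livers (log2 fold change -0.82, and -0.45 in sgBap1 livers). Tead3 was named after its values were seen. Vgll4, a cofactor that competes with YAP for TEAD, fell by 1.07 in NTC and 0.93 in sgBap1 livers. Vgll3, another TEAD cofactor, measured 0.218 and 0.610 CPM in NTC-Veh, 0.404 and 0.487 in the sgBap1-Veh livers, 0.895, 1.11 and 0.937 in NTC-CCl4 and 0.988, 3.61 and 1.08 in sgBap1-CCl4 livers, with the highest value in the 2nd sgBap1-CCl4 liver. Its log2 fold change was 2.10 in sgBap1 livers (adjusted p = 0.0192) and 1.24 in NTC livers (adjusted p = 0.129). Without that liver it was 1.22 in sgBap1 and 1.25 in NTC livers and passed in both (adjusted p = 0.0355 and 0.0227), and without the 1st or the 2nd sgBap1-Veh liver the call in sgBap1 livers was lost (0.114 and 0.0789). Tead4 lost its call in NTC livers without the 1st NTC-Veh or the 3rd NTC-CCl4 liver (adjusted p = 0.131 and 0.0557) and in sgBap1 livers without the 2nd sgBap1-Veh liver (0.133). Tead2 lost it in NTC livers without the 1st NTC-Veh liver (0.0850) and Tead3 in sgBap1 livers without the 2nd sgBap1-Veh liver (0.0533). Without the 1st NTC-Veh or the 3rd NTC-CCl4 liver 4 in place of 7 of these genes were called in NTC livers, and 4 in place of 7 in sgBap1 livers without the 2nd sgBap1-Veh liver.

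**Figure D5:**
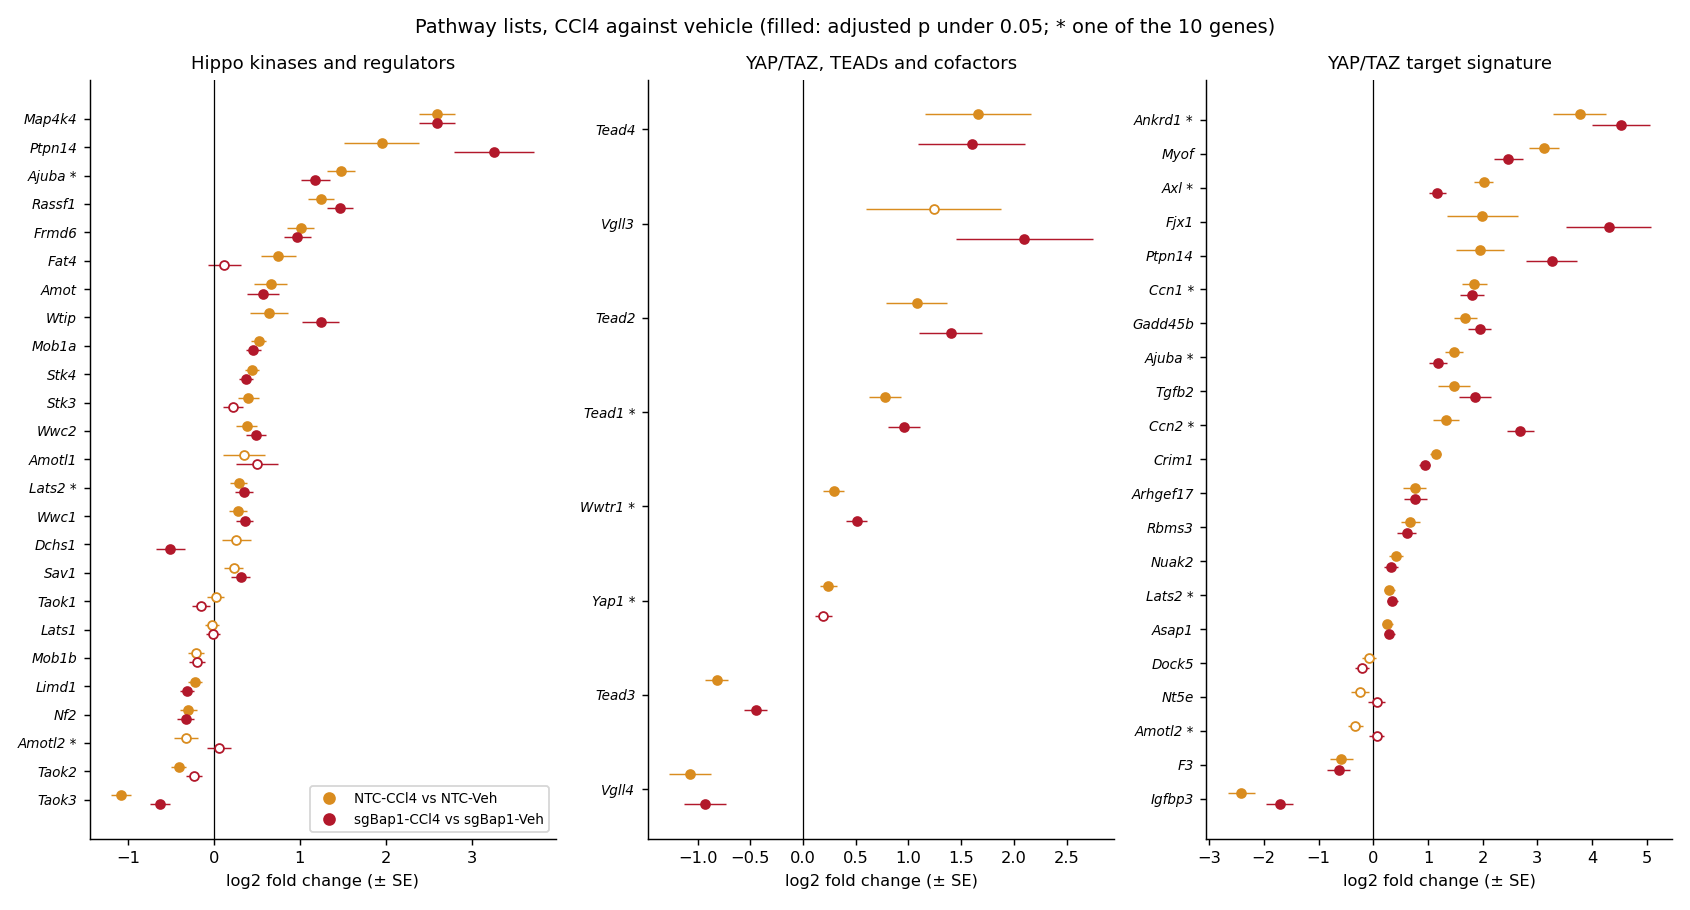
Log2 fold changes ± SE (x axes) with CCl4 in NTC and sgBap1 livers for the genes of 3 pathway lists (y axes), ordered by the change in NTC livers, with filled points at an adjusted p under 0.05. Most points lie to the right of 0 in each list. Genes to the left in both genotypes include Taok3, Taok2, Nf2, Limd1, Tead3, Vgll4, F3 and Igfbp3.

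Of the 22 genes of the YAP/TAZ target signature, 21 were tested (Foxf2 was not), and 16 were higher and 2 lower with CCl4 in both genotypes, with a median of 1.14 in NTC and 0.94 in sgBap1 livers. Over all tested genes 27.5% and 29% were higher, 26.3% and 27.7% lower, and the medians were 0.03 and 0.04. Myof, a membrane repair protein, rose by 3.12 and 2.47. Fjx1 measured 0.163 and 0.0277 CPM in NTC-Veh and 0.298 to 0.451 in NTC-CCl4 livers, and 0.0538 and 0 CPM in the sgBap1-Veh livers (at most 2 counts) against 0.553 to 0.719 in the sgBap1-CCl4 livers, so that its fold change is not given. The 2 genes that fell were Igfbp3, a carrier of insulin-like growth factors, by 2.41 and 1.71, and F3, the coagulation starter tissue factor, by 0.58 and 0.63. F3 was named after its values were seen. It lost its call in NTC livers without either NTC-Veh liver, the 1st or 3rd NTC-CCl4 or the 1st sgBap1-CCl4 liver (adjusted p up to 0.164), and in sgBap1 livers without the 1st sgBap1-Veh or the 1st sgBap1-CCl4 liver (up to 0.163). Without the 1st NTC-Veh liver 11 in place of 18 genes were called in NTC livers.

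Between genotypes 1 of the 21 target genes was called by edgeR, Nt5e, which encodes the ectonucleotidase CD73 and was lower with vehicle. It measured 56.2 and 71.1 CPM in NTC-Veh and 31.1 and 31.5 in the sgBap1-Veh livers, a difference of -1.02 on the log2 scale (SE 0.18, adjusted p = 0.0491). With 1 mouse left out in turn, 0 of the target genes were called in 9 of the 10 fits and 2 were called without the 2nd sgBap1-CCl4 liver. With CCl4 Nt5e measured 51.0 to 56.4 CPM in NTC and 24.7 to 36.6 in sgBap1 livers (log2 fold change -0.73, adjusted p = 0.0747). Of the target list 0 genes were called with CCl4 and 0 for the interaction, with 9 and 2 at an unadjusted p under 0.05, against 13.4% and 10.6% of all tested genes, and 3 and 2 called by DESeq2. Without either NTC-Veh liver 1 target gene was called with CCl4.

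Other cell types changed with CCl4 beside these genes. Of all tested genes 27.5% were called higher and 26.3% lower in NTC livers, and 29% and 27.7% in sgBap1 livers. The marker counts that follow read against these shares. Of 8 stellate cell and myofibroblast markers 7 rose in NTC livers and 6 in sgBap1 livers, and their sum went from 102 to 133 CPM in NTC-Veh to 481 to 628 in NTC-CCl4 livers. The 4 proliferation markers all rose, from sums of 5.80 to 11.8 CPM in the 4 vehicle livers to 149 to 285 in the 6 CCl4 livers. The 8 hepatocyte markers summed to 112902 to 157076 CPM with vehicle and 64769 to 82858 with CCl4, and 7 of them fell in NTC and 4 in sgBap1 livers. Endothelial markers summed to 149 to 213 CPM with vehicle and 197 to 243 with CCl4. Of these 6 markers 3 were called higher in NTC livers, and 3 higher and 2 lower in sgBap1 livers. Mesothelial markers summed to 0.436 to 14.8 CPM over all livers without a split by treatment. The part of these cells in the rise of Ccn1, Ccn2, Ankrd1, Ajuba and Axl was not tested.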

How the data were processed

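The authors aligned stranded poly(A) RNA-seq reads to mm10 (GRCm38) with STAR 2.7.6a and quantified genes with Salmon 1.4.0 on GENCODE vM25. The deposited values are Salmon's estimated counts per gene symbol, as made by the authors, not normalized, and 9.22% of them are not whole. They were rounded to 0 decimals. Low genes were removed by filterByExpr of edgeR 4.0.16 (R 4.3.3), libraries were normalized by TMM, and 1 model of the 4 groups was fitted (estimateDisp, then glmQLFit with robust = TRUE). Comparisons and the interaction were tested by the two-sided quasi-likelihood test at a Benjamini-Hochberg threshold of 0.05 across 17015 genes. SE is the size of the log2 fold change divided by the square root of F.

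Group and replicate come from the sample labels. Nothing in the labels names a batch or says that replicates are separate animals, so p-values measure the spread between these livers. In each pair of livers of 1 group, counts differed by a mean chi-square per gene of 15.5 to 90.6, and each liver was kept as a replicate. With 2 livers against 2 or 3, precision is limited by their number more than by depth, and the 3-count level covers counting error only.

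The 10 genes, the pathway and marker lists and the comparisons were chosen with earlier results of these data known. Named genes are the 10, Bap1, and, for each pathway list and comparison, up to 3 called genes with the largest absolute log2 fold changes and 1 in the other direction. Others are marked in the text as named after their values were seen. Genes most like Yap1, Ccn1 and Ccn2 were taken by Pearson correlation among genes averaging 100 counts or more. It was computed on log2 CPM (prior count 2) and on its deviations from the group means. Gene positions, exon lengths, overlaps and shared stretches of 50 bases come from GENCODE vM21 on GRCm38, and the library type set in Salmon is not given in the sources used here. Alternatives were DESeq2 size factors, scaling by library size alone, no filter beyond 1 count, a minimum mean of 10 counts, a block for the replicate number, DESeq2's Wald test (DESeq2 1.42.0), a fit restricted to the pair of groups, and the omission of single mice. The omissions for single genes of the pathway lists were added after seeing the data.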

Additional observations from a re-analysis of the deposited data

How the results depend on the processing

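For the 10 genes and Bap1 in the 5 comparisons, 347 of 373 values under alternatives other than leaving out a mouse kept their direction and side of the threshold, and 487 of 550 values with a mouse left out did. The replicate numbers did not pair the livers (correlation of deviations between same-numbered livers -0.15 to 0.10). With the number as a block, 6 in place of 9 of the 10 genes were called in NTC livers with CCl4 (adjusted p of Yap1 0.0871, Wwtr1 0.0787 and Lats2 0.0631), 8 in sgBap1 livers and 0 between genotypes, and Bap1 lost both calls (0.0713 and 0.0618). Bap1 between the CCl4 groups also lost its call by library size alone (0.0621) and in a fit of 2 groups (0.0715), Yap1 in NTC livers with no filter (0.0732), and Yap1 (0.67) and Amotl2 (0.55) passed in sgBap1 livers by library size alone. DESeq2's Wald test called 1 of the 10 between genotypes with vehicle, 1 with CCl4 and 2 for the interaction, where edgeR called 0. With a mouse left out, 6 to 10 of the 10 genes were called in NTC and 7 to 8 in sgBap1 livers with CCl4, 0 to 1 between genotypes in either treatment, and 0 to 0 for the interaction.

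Directions turned for values near 0. The vehicle genotype difference of Yap1 (-0.00) was 0.01 with DESeq2 size factors, 0.01 by library size alone, 0.00 with the block and 0.01 by DESeq2, and that of Lats2 was -0.01 with no filter and -0.02 in a fit of 2 groups. By library size alone, where the median of all genes with CCl4 was 0.50 in NTC and 0.52 in sgBap1 livers and 80.7% and 78.5% of calls were higher (51.1% and 51.2% with TMM), Amotl2 (0.15) and Bap1 (0.28) turned in NTC livers with CCl4 and Axl (0.01) between the CCl4 groups. With a mouse left out, vehicle genotype differences ranged from -0.07 to 0.07 for Yap1, -0.21 to 0.07 for Wwtr1, -0.27 to 0.11 for Tead1, -0.09 to 0.38 for Ccn1, -0.58 to 0.12 for Ccn2, -0.20 to 0.02 for Amotl2, -0.33 to 0.07 for Ajuba and -0.03 to 0.03 for Lats2. Those with CCl4 ranged from -0.01 to 0.21 for Tead1, -0.05 to 0.21 for Ccn1, -0.18 to 0.44 for Ankrd1 and -0.17 to 0.08 for Axl. The CCl4 change in sgBap1 livers ranged from -0.07 to 0.18 for Amotl2 and -0.04 to 0.15 for Bap1, and the interaction from -0.12 to 0.03 for Yap1, -0.02 to 0.37 for Tead1 and -0.30 to 0.17 for Ccn1. The cause was not tested.

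Over all genes, 89 were called between genotypes with vehicle, against 548 by DESeq2, 177 with no filter, 47 by library size alone, 35 in a fit of 2 groups and 1 with the block. With CCl4 43 were called, against 480 by DESeq2, 113 with no filter and 3 with the block. For the interaction 0 were called, with 1796 at an unadjusted p under 0.05, against 411 by DESeq2, 103 with no filter and 8 by library size alone. Depth limits Ankrd1 with vehicle, at 3 to 12 counts.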

Other observations

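Ratios of 2 genes within a liver do not depend on how libraries are scaled, and 2 such ratios were chosen after their values were seen. Per kilobase of exon, Ccn2 over Ccn1 was 0.59 and 0.69 in NTC-Veh, 0.41 and 0.60 in sgBap1-Veh, 0.56, 0.35 and 0.49 in NTC-CCl4 and 0.72, 1.05 and 0.98 in sgBap1-CCl4 livers, so that the 3 sgBap1-CCl4 livers had the highest ratios of all 10. Wwtr1 over Yap1 was 0.45 to 0.50 in the 4 vehicle livers, 0.46 to 0.54 for NTC-CCl4 and 0.55 to 0.64 for sgBap1-CCl4. Neither ratio was tested.

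Over the 10 livers of both treatments, the levels of Tead1 correlated with those of Ankrd1 (r = 0.97) and Ccn1 (r = 0.96). Both were picked as the highest among all pairs of the 10 genes and are given as a description. These values include the differences between groups, and by deviations from group means they were 0.69 for Ankrd1 and 0.60 for Ccn1. With group means taken out, Tead1 deviated with Amotl2 (r = 0.87) and Yap1 against Ccn1 (r = -0.84). These are the highest and the lowest value among all pairs of the 10 genes, over 10 livers of which the vehicle pairs mirror each other. Likeness of levels was ranked among 12018 genes averaging 100 counts or more, over livers of both treatments. The levels most like Ccn1 were those of Vcl (r = 0.994), Slc7a11 (0.993) and Cyfip1 (0.992). Those most like Ccn2 were Ddb1 (0.990), Usp5 (0.985) and Sec23ip (0.977), and those most like Yap1 were Hp (0.991), Pdia3 (0.979) and Mal2 (0.975). By deviations from group means other genes came first, Ube3c for Ccn1 (0.973), Ddr1 for Ccn2 (0.983) and Ube2a for Yap1 (0.982).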
